A study of Arabidopsis thaliana with 15 samples.

Results

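The genes described here are the nuclear genes for light harvesting proteins and photosystem subunits of Arabidopsis thaliana, chosen by locus identifier: 39 of the 37336 genes in the count files. Of these, 5 encode the antenna of photosystem I (LHCA1 to LHCA4 and LHCA6), 14 the antenna of photosystem II (LHCB1.1 to LHCB1.5, LHCB2.1 to LHCB2.3, LHCB3, LHCB4.1 to LHCB4.3, LHCB5 and LHCB6), 12 subunits of photosystem I (PSAD1, PSAD2, PSAE1, PSAE2, PSAF, PSAG, PSAH1, PSAH2, PSAK, PSAL, PSAN and PSAO) and 8 subunits of photosystem II (PSBO1, PSBO2, PSBP1, PSBQ1, PSBQ2, PSBR, PSBS and PSBY). The photosystems sit in the thylakoid membrane of the chloroplast. Photosystem II takes electrons from water, and photosystem I lifts them to ferredoxin. Their reaction centre proteins are encoded in the plastid, whereas the chlorophyll-binding antenna and many outer subunits are encoded in the nucleus and imported. Nuclear antenna genes are known for strong regulation by light, the circadian clock and signals from the chloroplast.

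RNA came from the fifth rosette leaf of plants grown for 21 days with 16 h of light per day at 22 °C and 50% humidity. There are 15 libraries of 4 genotypes. The drdd plants carry dme-2, ros1-3, dml2-1 and dml3-1 (3 libraries, B, C and D). The rdd plants carry ros1-3, dml2-1 and dml3-1 (4 libraries, A to D), and the dme plants carry dme-2 (4 libraries, A to D). WT plants are segregants with all 4 genes intact (4 libraries, A to D). DME, ROS1, DML2 and DML3 are DNA glycosylases that cut methylated cytosine out of DNA. All plants, WT included, also carry pAGL61::DME, in which DME is driven by a promoter known for activity in the central cell of the ovule, so no group is free of this transgene. Nothing in the labels tells whether the libraries of a genotype are from different plants. The p-values thus speak for the spread between these libraries, part of which may be technical. Levels are given as CPM, which are counts scaled to a common library total after TMM adjustment of that total, in the order of the replicate letters. Calls rest on edgeR's quasi-likelihood test, fitted over the 18598 genes that passed the filter, with p adjusted after Benjamini and Hochberg and a threshold of 0.05.

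Libraries held 8730340 to 23302135 counts. Members took 5.76% to 9.01% of them, and all 39 passed the filter on low counts, the lowest count of any member in a library being 112 (LHCB4.3). DML2 stood at 6.78 to 11.3 CPM in drdd and 5.30 to 10.14 CPM in rdd, against 23.9 to 28.1 CPM in dme and 21.3 to 31.9 CPM in WT, whereas DME, ROS1 and DML3 transcripts were still present in every library. The Rubisco gene RBCS1A was at 16923 CPM or more in every library, and 0 of 5 shoot meristem and floral markers passed the filter, with WUS and LFY at 0 throughout. Libraries of a genotype were not alike in other respects. The sum of 6 salicylic acid defence markers ran from 39.2 to 124 CPM in drdd, 37.5 to 660.0 CPM in rdd, 175 to 355 CPM in dme and 43.3 to 1933 CPM in WT. The highest values were in WT A, WT C and rdd B, where the marker PR1 stood at 503, 334 and 13.0 CPM, and 0 of these 6 markers were called in any comparison. The clock gene LHY was at 25.8, 12.6 and 39.2 CPM in drdd, 36.4, 25.3, 22.3 and 21.7 CPM in rdd, 17.9, 67.8, 33.9 and 138 CPM in dme and 103, 24.96, 96.0 and 14.9 CPM in WT.

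Sequences are shown for 2 sets of genes on which the results below turn: the upstream regions of the 3 CP29 genes, which behaved differently from each other, and a coding stretch of the LHCB1 copies, which are hard to tell apart. They are reference sequences from RefSeq assembly TAIR10.1, matched by locus identifier, and were not read from these plants. The upstream regions are the 250 bases before the annotated gene start, on the gene's own strand. They lie at chr5:208616-208865 (LHCB4.1, AT5G01530), chr3:2717307-2717556 (LHCB4.2, AT3G08940) and chr2:16745378-16745627 (LHCB4.3, AT2G40100), all on the plus strand. Capitals mark matches on either strand to the G-box CACGTG, the I-box GATAAG or CCAATC, which are motifs known from light-regulated promoters.
LHCB4.1: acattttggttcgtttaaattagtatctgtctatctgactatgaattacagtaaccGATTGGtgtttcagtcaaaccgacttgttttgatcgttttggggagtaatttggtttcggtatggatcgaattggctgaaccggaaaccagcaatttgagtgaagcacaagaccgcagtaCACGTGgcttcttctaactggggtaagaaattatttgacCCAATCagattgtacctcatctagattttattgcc
LHCB4.2: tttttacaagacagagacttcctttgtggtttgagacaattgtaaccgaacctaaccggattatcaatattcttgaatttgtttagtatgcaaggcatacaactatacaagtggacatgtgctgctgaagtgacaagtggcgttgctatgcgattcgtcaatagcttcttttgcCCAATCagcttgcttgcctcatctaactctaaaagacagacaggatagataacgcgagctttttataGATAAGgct
LHCB4.3: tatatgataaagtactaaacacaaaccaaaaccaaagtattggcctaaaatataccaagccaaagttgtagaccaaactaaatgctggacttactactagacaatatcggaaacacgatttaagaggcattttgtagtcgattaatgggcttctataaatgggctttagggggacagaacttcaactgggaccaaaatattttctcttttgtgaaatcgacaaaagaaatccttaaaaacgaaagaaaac
The LHCB4.1 stretch holds 1 G-box and 2 CCAATC matches, the LHCB4.2 stretch holds 1 I-box and 1 CCAATC match, and the LHCB4.3 stretch holds 0 of these motifs. In a window of 300 bases that adds the first 50 bases of the gene, a G-box was present in 13 of 39 members (33.3%), against 7.68% of all 27443 such windows. The I-box was present in 17 members (43.6%, against 14.6%) and CCAATC in 15 (38.5%, against 12.3%). The evening element AAAATATCT, a motif known from clock-controlled genes, was in 0 of 39 members and in 2.82% of all windows. None of these 4 motifs contains another, on either strand.

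The coding sequences of LHCB1.1 (AT1G29920), LHCB1.2 (AT1G29910) and LHCB1.3 (AT1G29930), neighbours on chromosome 1, are 804 bases long and differ among the 3 at 47 positions. Coding bases 25 to 84 are shown with the 8 positions that differ there in capitals. This stretch of 60 bases was chosen for having the most differing positions, so the copies are more alike elsewhere.
LHCB1.1: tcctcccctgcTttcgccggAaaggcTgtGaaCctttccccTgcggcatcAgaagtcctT
LHCB1.2: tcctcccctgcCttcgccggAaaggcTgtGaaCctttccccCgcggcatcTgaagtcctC
LHCB1.3: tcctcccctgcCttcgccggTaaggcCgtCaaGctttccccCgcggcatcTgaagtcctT
Between these copies 95.6% to 96.4% of coding bases are identical, and 16.6% to 34.3% of their windows of 50 bases occur unchanged in another gene. LHCB1.4 and LHCB1.5 share 23.0% of their windows in the same way, and LHCB2.1 and LHCB2.2 share 23.98% and 28.97%. The levels of these 7 genes are uncertain where reads fit several copies. PSAE1 and PSAG share 55.6% and 77.6% of their windows with the loci AT4G28755 and AT1G55673, which are also in the count files, so their levels are uncertain too. LHCA2 shares 10.6% of its windows with AT5G28450, which had 5 to 26 counts in a library, and is uncertain to that extent. The 3 LHCB4 genes share 0 windows with any other gene.

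Per kilobase of coding sequence, the most abundant member over all libraries was PSBR (AT1G79040), a small photosystem II subunit, at 10305, 11043, 10574 and 11735 CPM per kb in drdd, rdd, dme and WT. LHCB1.3, a main protein of the trimeric antenna LHCII, came next at 11087, 11431, 9073 and 10836 CPM per kb, levels whose SDs overlap those of PSBR. The least abundant was LHCB4.3 at 25.7, 74.6, 124 and 103 CPM per kb. The LHCB family thus held the lowest level and the one next to the highest. Averaged over the 15 libraries, LHCA genes ran from 231 CPM per kb (LHCA6) to 3315 (LHCA2). PSA genes ran from 1260.5 (PSAE2) to 7615 (PSAK), and PSB genes from 1306 (PSBO2) to 10955 (PSBR).

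The genes at the ends of these ranges stood as follows in single libraries. LHCB1.3 had 7248, 10080.3 and 9414 CPM in the drdd libraries, 8950.2, 6738, 10734 and 10341 CPM in the rdd libraries, 7264, 7923, 6801 and 7189 CPM in the dme libraries and 8057, 9428, 8971 and 8392 CPM in the WT libraries. LHCA2, a subunit of the photosystem I antenna belt, had 2539.7, 2815 and 2650.1 CPM in the drdd libraries, 2526, 2135, 2493 and 2713 CPM in the rdd libraries, 2679, 2829, 1846 and 2172 CPM in the dme libraries and 2347, 2956, 2681 and 3101 CPM in the WT libraries. Both overlapped between every mutant and WT except LHCB1.3 in dme, where all libraries were below WT. PSAK, a subunit at the edge of photosystem I, had 2528, 2905 and 3089.8 CPM in the drdd libraries, 3234, 2562, 3362 and 3138 CPM in the rdd libraries, 3053, 3407, 2402 and 2494 CPM in the dme libraries and 2689, 3364, 3119 and 3543 CPM in the WT libraries. PSAE2, one of the pair of genes for the ferredoxin-docking subunit PSAE, had 499.7, 659 and 543 CPM in the drdd libraries, 609.8, 534, 608 and 647 CPM in the rdd libraries, 559.6, 526, 484 and 416 CPM in the dme libraries and 446, 592, 509 and 649 CPM in the WT libraries. PSBO2, the minor gene of the manganese-stabilising protein, had 973, 991 and 1375 CPM in the drdd libraries, 1452, 1080.3, 1546 and 1522 CPM in the rdd libraries, 1274, 1507, 1318 and 1269 CPM in the dme libraries and 1238, 1252, 1247 and 1469 CPM in the WT libraries. These 3 subunit genes overlapped between every mutant and WT.

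The families also differed in how far a member's level moved among libraries. The ratio of a gene's highest to lowest CPM over all 15 libraries had a median of 4.76 in the LHCB family (1.37 for LHCB5 to 12.5 for LHCB4.3), 2.16 in LHCA, 1.53 in PSA and 1.56 in PSB. Within WT alone, the coefficient of variation had a median of 27.5% over LHCB genes (6.56% to 70.2%), 13.2% over LHCA, 13.9% over PSA and 13.4% over PSB. The medians of PSA and PSB were thus the lowest over all libraries, although PSAF (2.18) and PSAN (2.09) varied about as much as the median LHCA gene, and the genes with the widest ranges were in the antenna of photosystem II.

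**Figure D1:**
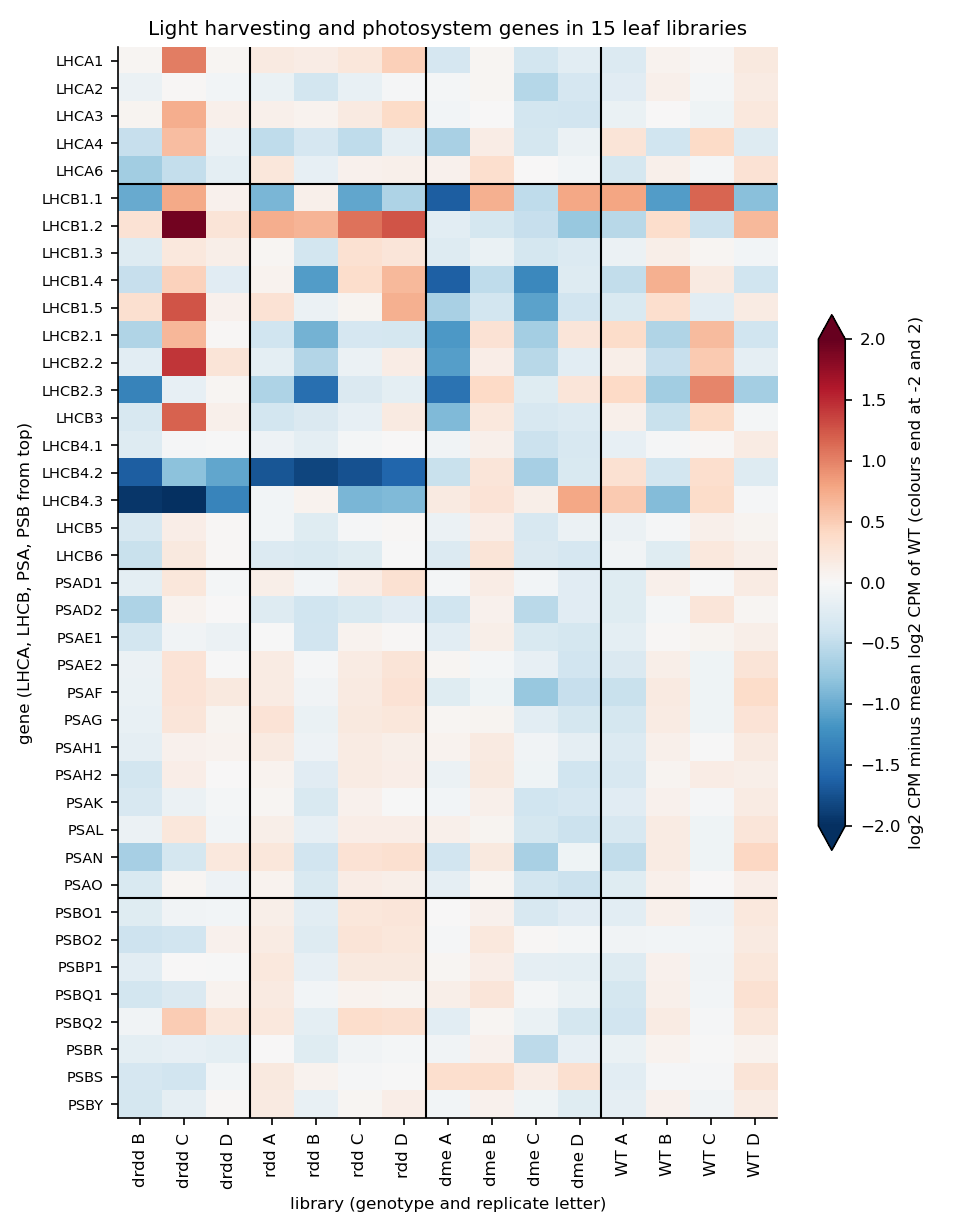
Each cell is the log2 CPM of a gene (rows, LHCA, LHCB, PSA and PSB from the top) in a library (columns, drdd, rdd, dme and WT from the left), minus that gene's mean log2 CPM in WT. Blue cells of LHCB4.2 fill the drdd and rdd columns and those of LHCB4.3 the drdd columns, while rows of PSA and PSB genes stay pale.

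Between genotypes, few members passed the test. In RNA of whole leaves, fewer cells of a type and less RNA per cell cannot be told apart. In drdd against WT, 2 of 39 members were called, LHCB4.2 and LHCB4.3, both lower, beside 1.35% of all genes tested. In rdd against WT, 1 was called, LHCB4.2, lower, beside 1.08% of all genes. In dme against WT, edgeR called 0 members, beside 0.0108% of all genes. DESeq2 and the authors' deposited table called 0 as well. An unadjusted edgeR p under 0.05 was found for 4 members (PSBS, LHCB1.5, LHCB1.4 and PSAF). That is 10.3% of members, beside 4.52% of all genes tested. The same share of members was 5.13% in rdd against WT (16.0% of all genes) and 12.8% in drdd against WT (14.2%). In drdd against dme it was 30.8% (15.9%). In drdd against dme, 3 members were called, LHCB4.3 and PSBS lower and LHCB1.5 higher, beside 2.26% of all genes; DESeq2 called these and LHCB1.2 (higher), LHCA6 and LHCB4.2 (both lower). In drdd against rdd, edgeR called 0 members, beside 0.468% of all genes. There, 6 members (15.4%) had an unadjusted edgeR p under 0.05, beside 11.3% of all genes tested. DESeq2 called LHCB4.3 (1 member, lower), and the authors' deposited table called LHCB4.3 and LHCA6 (both lower). A test of whether loss of DME had the same log2 effect with and without the rdd mutations, written (drdd − rdd) − (dme − WT), gave 0 calls in edgeR beside 0.108% of all genes. At an unadjusted p under 0.05 it gave 6 members (15.4%), beside 9.61% of all genes tested. For the same contrast DESeq2 called 2 (LHCB4.3 and PSBS, both negative).

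**Figure D2:**
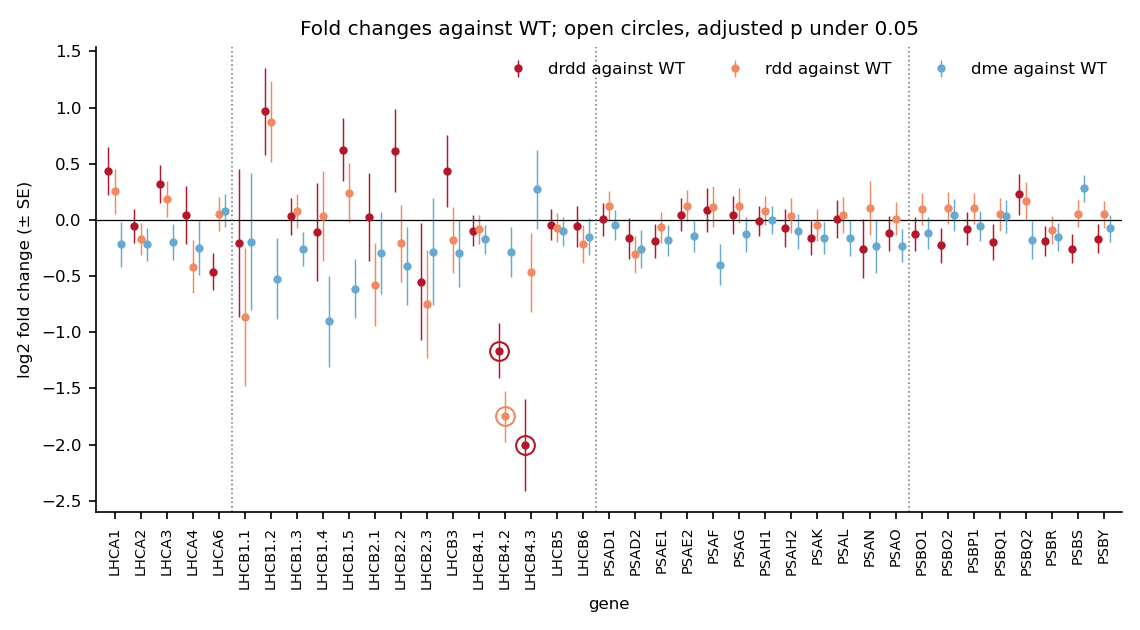
Points are log2 fold changes of each gene (x axis) in drdd, rdd and dme against WT with whiskers of 1 SE, and open circles mark an adjusted p under 0.05. The circled points are LHCB4.2 in drdd and rdd and LHCB4.3 in drdd; most others lie within 0.5 of 0.

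LHCB4.2, LHCB4.3 and LHCB4.1 encode isoforms of CP29, a monomeric antenna protein that links the LHCII trimers to the core of photosystem II. LHCB4.2 had 250.2, 446 and 382 CPM in the drdd libraries, 239, 221, 236 and 263 CPM in the rdd libraries, 577, 934, 497 and 635 CPM in the dme libraries and 966, 607, 995 and 654 CPM in the WT libraries. All drdd and all rdd libraries lay below every dme and every WT library, with the 4 rdd libraries the lowest as a group and the closest together. The mean was 359.6 ± 100.04 CPM in drdd (SD, n = 3), 239.7 ± 17.5 in rdd, 661 ± 191 in dme and 806 ± 203 in WT (SD, n = 4 each). LHCB4.2 fell in rdd against WT (log2 fold change −1.75, SE 0.23, adjusted p = 8.96e-04) and in drdd against WT (log2 fold change −1.16, SE 0.25, adjusted p = 0.0306). Between drdd and dme it did not pass (log2 fold change −0.88, SE 0.24, adjusted p = 0.0790), nor between drdd and rdd, where drdd was on the higher side (log2 fold change 0.58, SE 0.24, adjusted p = 0.355). The dme and WT libraries overlapped (log2 fold change −0.29, SE 0.22, adjusted p = 0.975), and without WT A and WT C the log2 fold change of dme against WT was 0.08. Without those libraries drdd against dme passed (−0.90, adjusted p = 0.0497). The authors' deposited table had LHCB4.2 at −1.76 in rdd (adjusted p = 1.998e-19) and at −1.17 in drdd (adjusted p = 0.000637).

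The lower level of LHCB4.2 in rdd passed in all 23 alternatives run, with adjusted p from 1.35e-11 to 0.0247, the last without WT A and WT C. Its lower level in drdd against WT was lost in 8 of 23 alternatives (adjusted p 0.000302 to 0.224). It was lost with the compared groups alone (0.113), without WT A (0.0724), WT C (0.105), drdd B (0.130), drdd C (0.0530) or drdd D (0.0671), and without WT A and WT C together the log2 fold change was −0.82 (adjusted p = 0.224). WT A and WT C, where LHCB4.2 was highest, are also the libraries with high salicylic acid defence markers and high LHY; the part of these in the result was not tested.

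LHCB4.3 stood at 20.7, 11.01 and 32.2 CPM in the drdd libraries, 77.6, 84.5, 42.5 and 43.3 CPM in the rdd libraries, 90.6, 97.3, 87.2 and 138 CPM in the dme libraries and 115, 44.1, 103 and 79.1 CPM in the WT libraries. Every drdd library was below every library of the other genotypes, WT overlapped both rdd and dme, and every rdd library was below every dme library. The means were 21.3 ± 10.6 CPM in drdd (SD, n = 3), 62.0 ± 22.2 in rdd, 103 ± 23.4 in dme and 85.3 ± 31.2 in WT (SD, n = 4 each). LHCB4.3 fell in drdd against WT (log2 fold change −2.0, SE 0.41, adjusted p = 0.0289) and against dme (log2 fold change −2.27, SE 0.41, adjusted p = 0.0137). Against rdd the difference did not pass (log2 fold change −1.54, SE 0.40, adjusted p = 0.138), and neither did rdd against WT (log2 fold change −0.47, SE 0.35, adjusted p = 0.521) or dme, which was on the higher side of WT (log2 fold change 0.27, SE 0.35, adjusted p = 0.999). The authors' deposited table called it in drdd against WT (−2.01, adjusted p = 4.77e-05) and in drdd against rdd (−1.54, adjusted p = 0.00140). The call in drdd against WT was lost in 8 of 23 alternatives (adjusted p 1.62e-05 to 0.189), among them the compared groups alone (0.147) and those without WT A (0.0672), WT C (0.0854), WT D (0.0544), drdd B (0.119) or drdd C (0.120), and without WT A and WT C together (−1.54, adjusted p = 0.189). Against dme it was lost without drdd B (0.0648) or drdd C (0.0590) and kept in the other 21.

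LHCB4.1, the most abundant CP29 gene, had 2234, 2608 and 2663 CPM in the drdd libraries, 2482, 2331, 2598 and 2676 CPM in the rdd libraries, 2532, 2861, 1972 and 2131 CPM in the dme libraries and 2374, 2624, 2717 and 2977 CPM in the WT libraries. The 4 genotypes overlapped throughout, and the log2 fold changes were −0.10 (SE 0.14) in drdd, −0.08 (SE 0.13) in rdd and −0.17 (SE 0.13) in dme. Shares of the 3 CP29 genes were taken from CPM per kilobase of coding sequence. LHCB4.2 made up 12.4% ± 2.31 in drdd (SD, n = 3) and 8.56% ± 0.266 in rdd, against 21.0% ± 2.65 in dme and 22.7% ± 5.25 in WT (SD, n = 4 each). LHCB4.1 made up 86.8% ± 2.09 in drdd and 89.1% ± 0.926 in rdd, against 75.5% ± 2.85 in dme and 74.8% ± 6.03 in WT. The share of LHCB4.1 in every drdd and rdd library was above that in every dme and WT library.

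**Figure D3:**
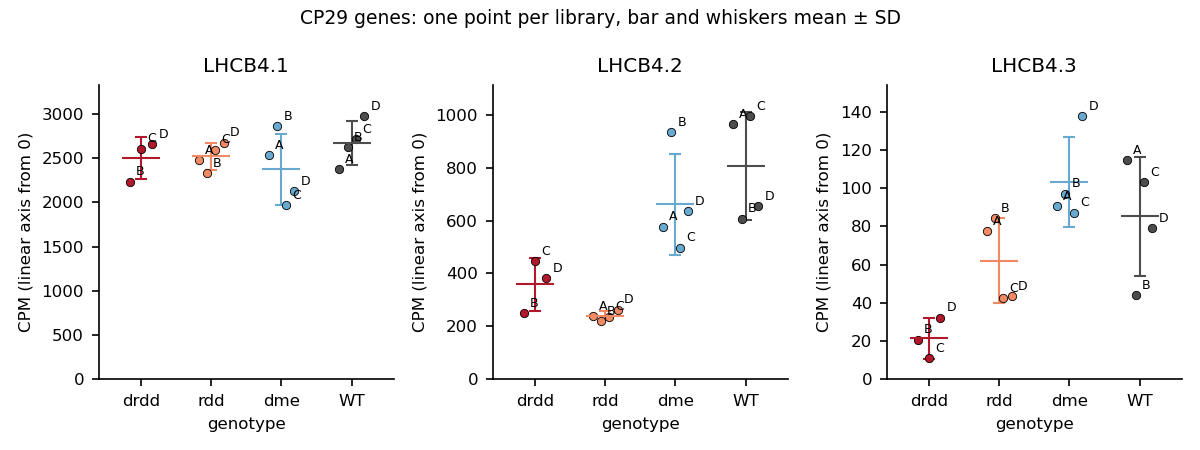
CPM (y axis from 0) of the 3 CP29 genes in each library by genotype (x axis), with the replicate letter beside each point and the mean ± SD as a bar with whiskers. LHCB4.1 overlaps in all 4 genotypes, LHCB4.2 is at 221 to 446 CPM in drdd and rdd and at 497 or more in dme and WT, and LHCB4.3 is at 32.2 CPM or less in drdd alone.

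Both called CP29 genes lie near a mutated glycosylase gene in the RefSeq TAIR10.1 gene order. LHCB4.2 lies 0.364 Mb from DML2, and LHCB4.3 lies 1.44 Mb from ROS1. LHCB4.1, which was not called, lies 1.1 Mb from DME. LHCB1.4 and LHCB1.5 lie 0.783 and 0.785 Mb from ROS1. Sequence close to a mutation is inherited with it, so genotype and linked sequence cannot be told apart for these 5 members. Within 2 Mb of a mutated gene lay 17.5% of the genes tested, 70 of the 251 genes called in drdd against WT (27.9%), 66 of the 200 in rdd against WT (33.0%) and 97 of the 420 in drdd against dme (23.1%). It was 11 of 87 in drdd against rdd (12.6%), 3 of 20 in the interaction (15%) and 0 of 2 in dme against WT. Every one of these shares pools the windows around all 4 mutated genes. The groups compared do not differ at all 4 in most comparisons: drdd and rdd, and dme and WT, differ in dme-2 alone. The shares therefore cannot show how far linked sequence weighs in a single comparison. Of the 3 tested genes on either side of LHCB4.2, AT3G08930 was lower in rdd against WT (log2 fold change −0.64, adjusted p = 0.00594) and AT3G08920 in drdd against WT (−0.82, adjusted p = 0.0259), and the other 4 were not called in either. None of the 6 tested genes around LHCB4.3 was called in drdd against WT, with edgeR adjusted p of 0.329 or more. The 6 around LHCB1.5, LHCB1.4 among them, had adjusted p of 0.139 or more in drdd against dme.

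LHCB1 and LHCB2 genes encode the proteins of the LHCII trimers. LHCB1.5 (AT2G34420) had 1310.3, 2496 and 1103 CPM in the drdd libraries and 668, 809, 498 and 800.3 CPM in the dme libraries, with 1269, 958, 1087 and 1707 CPM in rdd and 846, 1324, 904 and 1172 CPM in WT. Every drdd library was above every dme library, drdd C by far the highest, and all dme libraries were below all WT libraries. It was higher in drdd against dme (log2 fold change 1.24, SE 0.28, adjusted p = 0.0353), a call lost in 11 of 23 alternatives (adjusted p 0.000992 to 0.222), among them the compared groups alone (0.123), the one without rdd B and dme C (0.0672) and each one that left out a dme library (0.0618 to 0.0759), drdd B (0.0583), drdd C (log2 fold change 0.79, adjusted p = 0.222), rdd A (0.0521) or rdd C (0.0502). In dme against WT its log2 fold change of −0.61 (SE 0.26) did not pass (adjusted p = 0.974). The clock genes GI and PRR7 were higher in drdd against dme (2 of 7 clock genes called, 0 lower) and highest in drdd C, at 49.1 and 66.96 CPM; the part of this in the result was not tested.

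LHCB1.2 showed a like order without passing. Its levels were 735, 2291 and 722 CPM in the drdd libraries, 995, 966, 1280.3 and 1444 CPM in the rdd libraries, 519.6, 470.3, 435 and 355 CPM in the dme libraries and 408, 765, 444 and 942 CPM in the WT libraries. All rdd libraries were above all WT libraries, and all drdd libraries were above all dme libraries, while drdd C stood far above the other drdd libraries. LHCB1.2 did not pass in rdd against WT (log2 fold change 0.87, SE 0.36, adjusted p = 0.263), in drdd against WT (log2 fold change 0.97, SE 0.38, adjusted p = 0.277) or in drdd against dme (log2 fold change 1.49, SE 0.39, adjusted p = 0.0632). Without drdd C the log2 fold change was 0.19 in drdd against WT (adjusted p = 0.927) and 0.70 in drdd against dme (adjusted p = 0.396). Without WT A and WT C it was 0.45 in rdd against WT, 0.54 in drdd against WT and 1.47 in drdd against dme, and the last of these passed (adjusted p = 0.0483). DESeq2 called LHCB1.2 in drdd against dme, and the authors' deposited table called it in rdd against WT (0.87, adjusted p = 0.0279).

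LHCB1.4 (AT2G34430) had 759.5, 1439.7 and 894 CPM in the drdd libraries, 1098, 483, 1333 and 1646 CPM in the rdd libraries, 337, 739, 430.3 and 877 CPM in the dme libraries and 745, 1723, 1192 and 793 CPM in the WT libraries. The dme and WT groups overlapped, and the difference did not pass (log2 fold change −0.90, SE 0.40, adjusted p = 0.974). LHCB1.3 was the main LHCB1 transcript in every library. It made up 60.4% to 82.0% of the summed CPM per kilobase of the 5 genes in the mutants and 70.6% to 77.3% in WT. Its log2 fold change was 0.03 in drdd, 0.08 in rdd and −0.26 in dme against WT, with all 4 dme libraries below all 4 WT libraries but no call in any comparison.

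LHCB1.1 was the most variable member within WT and within dme. It had 103, 350.1 and 219 CPM in the drdd libraries, 110.1, 222, 101 and 135 CPM in the rdd libraries, 66.1, 338, 146 and 354 CPM in the dme libraries and 359, 95.1, 462 and 116 CPM in the WT libraries. In WT the A and C libraries were several times higher than the B and D libraries, in dme the B and D libraries were the high ones, and no genotype stood apart. The 3 LHCB2 genes and LHCB3, the third protein of the trimer, likewise had both WT A and WT C above WT B and WT D. LHCB2.3 (AT3G27690), for example, had 65.9, 148 and 170.4 CPM in the drdd libraries, 108, 58.3, 135 and 145 CPM in the rdd libraries, 59.9, 219, 141 and 196 CPM in the dme libraries and 219, 102, 325 and 104 CPM in the WT libraries. LHCB2.1 (AT2G05100) had 94.2, 227 and 145 CPM in the drdd libraries, 109, 74.2, 114 and 112 CPM in the rdd libraries, 64.8, 175, 89.6 and 169 CPM in the dme libraries and 184, 94.7, 223 and 108 CPM in the WT libraries. LHY was high in WT A, WT C and dme D, and PR1 in WT A and WT C; the part of either in this spread was not tested. LHCB2.2 (AT2G05070) had 90.9, 284 and 127 CPM in the drdd libraries, 49.2, 116, 72.3 and 91.3 CPM in the dme libraries and 114, 76.8, 152 and 93.5 CPM in the WT libraries, and LHCB3 (AT5G54270) had 566, 1593 and 757 CPM in the drdd libraries, 383, 816, 564 and 583 CPM in the dme libraries and 760.4, 519, 917 and 685 CPM in the WT libraries. In both genes drdd C was the highest of all 15 libraries and drdd overlapped dme and WT. None of the LHCB2 genes or LHCB3 was called in any comparison. LHCB5 and LHCB6, the monomeric antenna proteins CP26 and CP24, were even across genotypes, with log2 fold changes of −0.21 to −0.04 against WT and 0 calls.

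**Figure D4:**
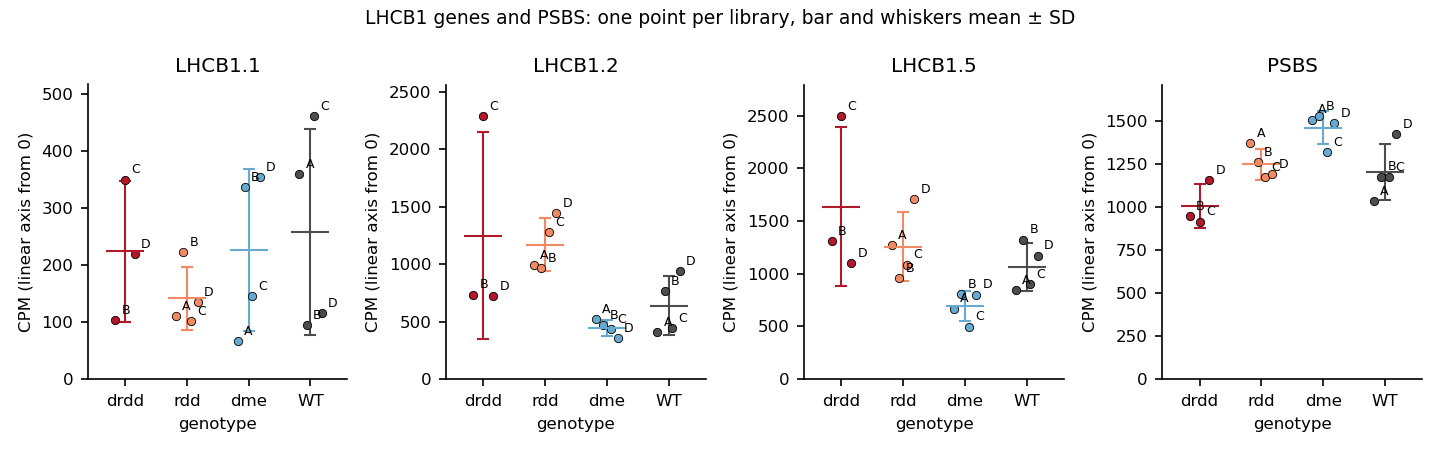
CPM (y axis from 0) of LHCB1.1, LHCB1.2, LHCB1.5 and PSBS in each library by genotype (x axis), with replicate letters and the mean ± SD as a bar with whiskers. LHCB1.2 and LHCB1.5 are highest in drdd C (2291 and 2496 CPM) and low in dme, LHCB1.1 splits the WT and dme libraries, and PSBS is highest in dme.

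In the antenna of photosystem I, 0 of 5 LHCA genes were called in any edgeR comparison. LHCA6 (AT1G19150), which helps attach photosystem I to the chloroplast NDH complex, had 118, 137 and 167 CPM in the drdd libraries, 224, 169.8, 203 and 206 CPM in the rdd libraries, 202, 240.1, 193 and 184 CPM in the dme libraries and 149, 204, 186 and 234 CPM in the WT libraries. All drdd libraries were below all rdd and all dme libraries and overlapped WT. The log2 fold changes were −0.46 against WT (SE 0.16, adjusted p = 0.212), −0.51 against rdd (SE 0.16, adjusted p = 0.222) and −0.54 against dme (SE 0.16, adjusted p = 0.105). DESeq2 called it against dme, and the authors' deposited table called it against rdd (−0.52, adjusted p = 0.0377). LHCA1 (AT3G54890) and LHCA3 (AT1G61520) went the other way, with all drdd libraries above all dme libraries, and did not pass. LHCA1 had 1344, 2651 and 1342 CPM in the drdd libraries and 1032, 1341, 1014 and 1130.5 CPM in the dme libraries (log2 fold change 0.66, SE 0.21, adjusted p = 0.138). As for LHCB1.2, drdd C was the highest library. LHCA3 had 1512, 2406 and 1556 CPM in the drdd libraries and 1401, 1462, 1127 and 1112 CPM in the dme libraries (log2 fold change 0.52, SE 0.17, adjusted p = 0.146). LHCA2 and LHCA4 overlapped in every comparison.

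Among the 12 PSA subunits 0 were called in any edgeR comparison, and 12 of 12 had a log2 fold change within 0.5 of 0 in drdd, rdd and dme against WT. PSAF (AT1G31330), which docks plastocyanin, had the lowest p of them in the comparisons with WT. It had 2668, 3525 and 3354 CPM in the drdd libraries, 3276, 2806, 3332 and 3565 CPM in the rdd libraries, 2466, 2771, 1732 and 2120.1 CPM in the dme libraries and 2143, 3311, 2754 and 3774 CPM in the WT libraries. The groups overlapped, and dme against WT did not pass (log2 fold change −0.40, SE 0.18, adjusted p = 0.974). PSAD and PSAE, which dock ferredoxin, and PSAH, PSAL and PSAO, which receive LHCII during state transitions, had log2 fold changes of −0.31 to 0.13 against WT over the 3 mutants. PSAG and PSAK, subunits at the edge of the complex, had log2 fold changes of −0.16 to 0.13. PSAN (AT5G64040), a subunit on the lumen side, had a ratio of highest to lowest CPM over all libraries of 2.09, next to 2.18 for PSAF, and the widest coefficient of variation of the family within WT (25.4%, against 23.5% for PSAF), with 887, 1094 and 1619.8 CPM in the drdd libraries and 999, 1574, 1312 and 1854 CPM in the WT libraries and no call.

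Of the 8 PSB subunits, PSBS (AT1G44575), which switches on the dissipation of excess light energy as heat, was the only one called, in drdd against dme. It had 949, 917 and 1157 CPM in the drdd libraries, 1374, 1260.3, 1176 and 1193 CPM in the rdd libraries, 1509.5, 1530.4, 1322 and 1487 CPM in the dme libraries and 1034, 1177, 1175 and 1427 CPM in the WT libraries. Every drdd library was below every dme library and every rdd library, while WT overlapped all 3 mutants. PSBS fell in drdd against dme (log2 fold change −0.54, SE 0.13, adjusted p = 0.0459), and the call was lost in 16 of 23 alternatives (adjusted p 0.000693 to 0.211). It was lost with the compared groups alone (0.147), with no filter on low counts (0.0616), without rdd B and dme C together (0.0507), without WT B or WT C (0.0645 and 0.0644), dme A, B or D (0.0885 to 0.110), any rdd library (0.0507 to 0.0646), drdd B (0.154) or drdd C (0.211), and with total counts in place of TMM (−0.42, adjusted p = 0.0652). PSBS did not pass in drdd against WT (log2 fold change −0.26, SE 0.13, adjusted p = 0.387) or in dme against WT, where dme was on the higher side (log2 fold change 0.28, SE 0.12, adjusted p = 0.974). The extrinsic proteins of the oxygen-evolving complex, PSBO1, PSBO2, PSBP1, PSBQ1 and PSBQ2, had log2 fold changes of −0.23 to 0.23 against WT over the 3 mutants, with 0 calls. PSBY, a small membrane subunit, had log2 fold changes of −0.17 to 0.05. PSBR (AT1G79040), which helps hold that complex, had 4348, 4413 and 4316 CPM in the drdd libraries, 4964, 4197, 4720.1 and 4805 CPM in the rdd libraries, 4715, 5282, 3454 and 4440.2 CPM in the dme libraries and 4505, 5226, 4916 and 5207 CPM in the WT libraries. All drdd libraries were below all WT libraries, with a log2 fold change of −0.19 (SE 0.14) that did not pass.

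Beside the lower PSBS in drdd against dme, 4 of 7 mesophyll markers were lower (RBCS2B, SBPASE, RBCS1B and RCA), and the sum of the 7 was 32510 to 45958 CPM in drdd, against 57136 to 66505 CPM in dme. It was 47965 to 56729 CPM in rdd and 43527 to 57247 CPM in WT. Their part in the result was not tested. Of 5 guard cell markers 1 was called, FAMA (AT3G24140), lower in drdd against each of the other 3 genotypes. Over all genes tested, 1.35% were called against WT, 0.468% against rdd and 2.26% against dme. The median log2 fold change of the 5 markers in drdd was 0.05 against WT, −0.34 against rdd and −0.14 against dme. Their sum was 74.9 to 102.9 CPM in drdd and 115.4 to 137.1 CPM in rdd. In dme it was 85.2 to 130.4 CPM and in WT 91.4 to 118.1 CPM, both overlapping drdd. The scaling mattered in drdd against dme. Over all genes, TMM gave 171 higher and 249 lower calls, whereas total counts gave 392 higher and 174 lower and moved the median of all genes by 0.12 on the log2 scale. With total counts 3 members were called, LHCB1.2 and LHCB1.5 higher and LHCB4.3 lower. In drdd against WT the split was 104 higher and 147 lower with TMM and 128 and 96 with total counts, and in drdd against rdd it was 27 and 60 against 41 and 50; the 2 members called against WT kept their calls.

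Group separation, read without a test from the same libraries, gave some of the called members and others that were not called. The libraries did not overlap for 3 members in drdd against WT (LHCB4.2, LHCB4.3 and PSBR, all lower; 13.1% of all genes tested), 2 in rdd against WT (LHCB4.2 lower and LHCB1.2 higher; 10.3%) and 2 in dme against WT (LHCB1.3 and LHCB1.5, lower; 2.17%). They did not overlap for 3 members in drdd against rdd (LHCA6, LHCB4.3 and PSBS, lower; 12.1%) and 8 in drdd against dme (LHCA1, LHCA3, LHCB1.2 and LHCB1.5 higher, LHCA6, LHCB4.2, LHCB4.3 and PSBS lower; 14.4%). As shares of the 39 members these are 7.69%, 5.13%, 5.13%, 7.69% and 20.5%, of which the shares in drdd and rdd against WT and in drdd against rdd are below those over all genes.

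As a set, the members shifted little against WT. The median log2 fold change was −0.08 in drdd, 0.04 in rdd and −0.18 in dme against WT, beside −0.0035, −0.0056 and −0.010 over all genes tested. In dme, 34 of 39 members were on the lower side, beside 9729 of 18598 genes tested, and none was called. They included 13 of 14 LHCB genes (median −0.29) and 12 of 12 PSA genes. Without WT A and WT C, 32 of 39 members were on the lower side, with 9 of 14 LHCB genes (median −0.05) and 12 of 12 PSA genes. In drdd the median was 0.01 with total counts and −0.15 without drdd C, and in rdd it was −0.06 without WT A and WT C, so the sign of these 2 medians rests on the scaling or on a few libraries. A log2 fold change within 0.5 of 0 was found for 33 of 39 members in drdd (84.6%, against 80.2% of all genes), 34 in rdd (87.2%, against 80.8%) and 36 in dme (92.3%, against 89.9%). In drdd against rdd it was 82.1% (against 85.0%), and in drdd against dme 71.8% (against 79.4%). In the interaction it was 69.2% (against 78.3%). There the LHCB median was 0.69 with 13 of 14 genes positive, beside 0.012 over all genes tested. That LHCB median was 0.35 without drdd C and 0.26 without WT A and WT C.

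The ratio of photosystem I to photosystem II transcripts overlapped among the 4 genotypes when all members were summed, but not between all of them without the LHCB1 genes. No test was run on it. The 17 photosystem I genes summed to 33886 ± 4946 CPM in drdd (SD, n = 3), 34797 ± 3574 in rdd, 30131 ± 4286 in dme and 34145 ± 4450.1 in WT (SD, n = 4 each). The 22 photosystem II genes summed to 40739 ± 6101 CPM in drdd, 42174 ± 5274 in rdd, 37186 ± 4280.2 in dme and 41627 ± 3204 in WT. The log2 ratio of the sums was −0.25, −0.26 and −0.29 in the drdd libraries, −0.26, −0.23, −0.31 and −0.30 in the rdd libraries, −0.24, −0.27, −0.31 and −0.41 in the dme libraries and −0.39, −0.27, −0.32 and −0.19 in the WT libraries. All genotypes overlapped, and the drdd and rdd libraries lay within the range of WT. The difference of the means from WT was 0.03 for drdd, 0.02 for rdd and −0.02 for dme, each below the SD of 0.08 among WT libraries. When the 5 LHCB1 genes were left out, the log2 ratio was 0.23 to 0.38 in the drdd libraries, 0.23 to 0.27 in rdd, 0.04 to 0.15 in dme and 0.09 to 0.27 in WT. Every drdd and every rdd library then lay above every dme library, while WT overlapped all 3 mutants. The difference of the means from WT was 0.10 for drdd, 0.06 for rdd and −0.08 for dme, the first of these above the SD of 0.08 among WT libraries. With all members summed per kilobase of coding sequence, the log2 ratio was 0.12 to 0.13 in drdd and 0.11 to 0.16 in rdd. In dme it was then −0.01 to 0.15 and in WT 0.01 to 0.21. Which photosystem had the larger sum thus rests on the scaling to length, and the genotypes overlapped either way.

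**Figure D5:**
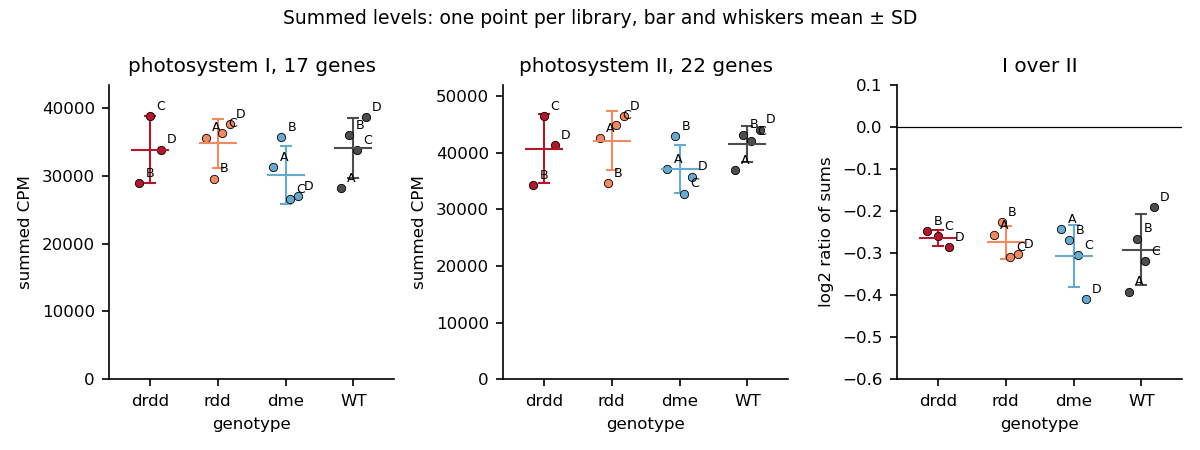
The left and middle panels show the summed CPM (y axis from 0) of the photosystem I and photosystem II genes in each library by genotype, and the right panel shows the log2 ratio of these sums, with replicate letters and mean ± SD. The genotypes overlap in all panels, and the ratio, not scaled to coding length, lies between −0.41 and −0.19 in all 15 libraries.

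The PSAD, PSAE, PSAH and PSBO pairs had narrow ranges of shares, and the PSBQ pair a wider one. PSAD1 made up 72.2% to 81.8% of the PSAD total over all libraries, PSAE1 78.0% to 83.5% of PSAE, PSAH2 52.0% to 58.7% of PSAH and PSBO1 72.7% to 80.9% of PSBO. PSBQ1 made up 35.4% to 46.1% of PSBQ in drdd, 43.9% to 51.3% in rdd, 50.4% to 54.4% in dme and 47.7% to 50.1% in WT. All drdd libraries were thus below all WT and all dme libraries, all dme libraries were above all WT libraries, and rdd overlapped the others. Neither PSBQ gene was called.

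Of 10 further nuclear photosystem genes, 1 was lower in drdd against WT (1.35% of all genes were called) and 2 in drdd against dme (2.26%), 0 were higher, and 0 were called in the other comparisons. Their median log2 fold change was −0.36 in drdd against WT, −0.28 in drdd against rdd and −0.41 in drdd against dme, beside −0.0035, 0.0065 and 0.0009 over all genes tested. PSBP-2, a relative of the oxygen-evolving protein PSBP1, had 3.29, 2.65 and 2.95 CPM in drdd, 8.02, 12.7, 5.67 and 9.77 CPM in dme and 9.32, 7.87, 9.75 and 7.90 CPM in WT, and every drdd library was below every dme and WT library. It fell in drdd against WT (log2 fold change −1.55, SE 0.35, adjusted p = 0.0454) and against dme (log2 fold change −1.60, SE 0.35, adjusted p = 0.0312). PSB28, a protein bound during assembly of photosystem II, fell in drdd against dme (log2 fold change −0.73, SE 0.15, adjusted p = 0.0246), with 145, 156 and 219 CPM in drdd and 287, 305, 292 and 269 CPM in dme. Of 15 genes for electron transport and the ATP synthase, 1 was called, PGR5-LIKE A, which acts in cyclic electron flow around photosystem I, lower in drdd against dme (log2 fold change −0.60, SE 0.14, adjusted p = 0.0371). The median of these 15 genes was −0.31 in drdd against WT, −0.26 in drdd against rdd and −0.32 in drdd against dme. State transition enzymes (3 genes), factors that bring LHC proteins to the thylakoid (4) and LHC-like proteins of the ELIP and OHP type (8) had 0 calls in edgeR in any of the 6 comparisons.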

How the data were processed

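RNA-seq counts came from 15 leaf libraries, each summarised by the authors as a deposited table of raw read counts per gene (HTSeq). The submitters' processing notes name FastQC, Trim Galore, STAR, HTSeq and DESeq2. Their versions, the genome build and the handling of strand were not given in the sources used. Beside the counts there are 4 DESeq2 tables by the authors (each mutant set against WT, and drdd set against rdd), which hold, per the file headers, a mean of size-factor-scaled counts (a signal), a log2 fold change with its SE, a Wald statistic (a score) and a p-value with its adjusted p-value.

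Libraries held 8730340 to 23302135 counts (median 12178873), and 1.54% to 2.17% of reads fell in no gene and were left out. Counts were tested with edgeR 4.0.16 (quasi-likelihood, TMM, filterByExpr with a minimum count of 10, robust) in R 4.3.3 with limma 3.58.1, in 1 model of all 4 genotypes with 11 residual degrees of freedom; 18598 of 37336 genes were tested and p-values adjusted over all of them. The test was first checked on simulated counts. DESeq2 1.42.0, other scalings, no filter, the compared groups alone, a replicate block and leaving out libraries were alternatives. Levels between genes are per kilobase of coding length from RefSeq TAIR10.1, which 37051 identifiers matched and which also gave names, distances and sequences. Counting error is small at these depths, so the spread between libraries sets the precision.

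Members and gene lists were chosen with earlier results of these data known. Values in every library are given for members past the threshold in any comparison, then those of lowest unadjusted p against WT up to 8 in all, the most and least abundant member of each family, and members within 2 Mb of a mutated gene; other members named were chosen after their values were seen. Paralogues are given by share of CPM per kilobase of coding length.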

Additional observations from a re-analysis of the deposited data

Results flagged for a closer look

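Of 117 combinations of gene and genotype with 4 libraries, 5 held a library far from the other 3, where chance alone would give about 1 in 20. In rdd, 3 of the 5 were in library B. PSBP1, an extrinsic protein of the oxygen-evolving complex, stood at 3427 CPM in rdd B, against 4369.7 to 4422 CPM in the other rdd libraries. PSAL, a photosystem I subunit at the LHCII docking side, stood at 3202 CPM in rdd B, against 3905 to 3944 CPM in the others. LHCB2.1 stood at 74.2 CPM in rdd B, against 109 to 114 CPM in the others. LHCB6 (CP24) stood at 1830.2 CPM in dme B, against 1213 to 1265 CPM in the other dme libraries. PSBO2 stood at 1469 CPM in WT D, against 1238 to 1252 CPM in the other WT libraries.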

How the results depend on the processing

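In the 10 pairs of member and comparison followed through every alternative (the calls, and LHCA6 and LHCB1.2 in drdd and LHCB1.4 and PSAF in dme against WT), the log2 fold change kept its direction, whereas smaller ones did not all do so (LHCB4.2 in dme against WT was 0.08 without WT A and WT C, against −0.29, and LHCB1.2 in drdd against rdd −0.68 without drdd C, against 0.09), and the small differences in the photosystem ratio took either sign; 3 of the alternatives (total counts without TMM, rdd B and dme C left out, WT A and WT C left out) were chosen after seeing the data. The members called in drdd against WT numbered 0 with the replicate block, 0 with the compared groups alone and 0 without WT A and WT C, against 2, and 0 to 2 when single libraries were left out. In drdd against dme they numbered 6 with DESeq2, 1 with the replicate block, 1 with the compared groups alone, 1 without rdd B and dme C and 5 without WT A and WT C, against 3, and 0 to 4 when single libraries were left out. DESeq2 gave 1 in drdd against rdd and 2 in the interaction, against 0 in each. Leaving out single libraries gave 1 in rdd against WT throughout, and 0 in dme against WT, drdd against rdd and the interaction. The labels do not say what the replicate letters mean. For 21 pairs of libraries with the same letter, correlations of deviations ran from −0.495 to 0.430, 8 of them over 0.1. Pairs with different letters ran from −0.456 to 0.521, so these values showed no pairing by letter, and shared batches were not tested. With the replicate block in edgeR, LHCB4.3 in drdd against dme was the call left there, and PSBS (adjusted p = 0.0897) and LHCB1.5 (0.111) were not called. The log2 ratio of photosystem I to II in drdd minus WT was 0.10 without the 5 LHCB1 genes, against 0.03, and −0.01 to 0.06 when single libraries were left out; the same range was −0.02 to 0.05 for rdd and −0.05 to 0.02 for dme. Of 230 values of single named genes, 185 stayed on their side of the threshold and 45 lost it. All 45 were values of called pairs. LHCA6, LHCB1.2, LHCB1.4 and PSAF, not called to begin with, stayed uncalled in each of 23 alternatives. The 185 thus do not measure how stable the calls were. The cause of these changes was not tested. Counting error limits LHCB4.3 most, at 112 counts in its lowest library.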

Other observations

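Members moved together in single libraries. In rdd B, 34 of 39 members were at their lowest among the rdd libraries (87.2%, against 32.7% of all genes tested), 12 of 12 PSA genes among them. In drdd C, 28 of 39 were at their highest among the drdd libraries (71.8%, against 35.1%), and 11 were at their highest among all 15 libraries (28.2%, against 9.56%), LHCB1.2, LHCB1.5 and LHCB2.2 among them. LHCB4.3 and PSBS were the 2 members at their lowest drdd level in drdd C. In WT, the A and C libraries were both above B and D for 8 members (20.5%, against 27.9%), 7 of them LHCB genes and the other LHCA4, and both below B and D for 23 (59.0%, against 27.7%), which included 9 of 12 PSA and 8 of 8 PSB genes.

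The promoter motifs were spread unevenly over the families. CCAATC was in 8 of 14 LHCB windows and 1 of 12 PSA windows, and the I-box was in 4 of 14 LHCB and 8 of 12 PSA windows. The G-box was in 5 of 8 PSB, 4 of 12 PSA, 3 of 14 LHCB and 1 of 5 LHCA windows.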
